A study of Mus musculus with 7 samples.

Results

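The wild-type hypothalamus was described from 4 expression arrays, with no use of the difference between genotypes. The series holds 7 arrays of the hypothalamus of 3-month-old mice. The 4 described here, numbered 1 to 4 as the labels number them, are from wild-type mice. The other 3 are from Creb-PomcCre-/- mice, in which a Cre recombinase driven by Pomc deletes Creb in Pomc cells, and they enter only where their own within-group spread is named and in 1 alternative choice of probe sets. Each array carried biotin-labelled RNA made from total RNA of dissected hypothalami. The labels call the arrays biological replicates and do not give the sex or strain of the mice, or say whether 1 or several mice gave a sample, so a spread between arrays may hold both biological and technical parts. After control probe sets were left out, each gene was represented by the brightest of its probe sets that carry exactly 1 gene symbol, which gave 18193 genes from 34945 of 45037 probe sets. With a single group there is nothing to test between conditions, and no p-value is given.

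The hypothalamus lies at the base of the brain around the lower part of the third ventricle. It is a mosaic of small nuclei whose neurons release peptides: oxytocin and vasopressin from magnocellular neurons, orexin and melanin-concentrating hormone from the lateral area, and melanocortins from the arcuate nucleus. It borders the thalamus above, the basal forebrain in front and the meninges and pituitary stalk below. A dissected block therefore holds peptide neurons, glia, vessels and a variable rim of these neighbours. In an extract of whole tissue, fewer cells of a type and less RNA per cell cannot be told apart.

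Values are log2 signals that the authors deposited, in which a difference of 1 stands for a doubling. The 4 arrays had medians of 6.22 to 6.23 over probe sets, and pairs of arrays correlated at 0.995 to 0.997 over genes, which are not independent replicates. The median gene had an SD of 0.085 over the 4 arrays, and in 93.2% of genes the highest and lowest array differed by less than 0.5. A range of at least 1 was seen in 266 genes (1.46%), and one of at least 2 in 60. An SD from 4 arrays is itself imprecise: its 95% chi-square interval runs from 0.566 to 3.73 times the estimate.

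Peptide genes of the hypothalamus were read beside the tissue label. Pmch, the precursor of melanin-concentrating hormone, read 13.91, 13.66, 13.73 and 13.67 in arrays 1 to 4 and was among the 20 brightest genes. Oxt, the oxytocin precursor, read 12.80, 12.40, 12.66 and 12.74. Avp, the vasopressin precursor, read 12.60, 11.82, 12.33 and 12.30. Hcrt, the orexin precursor, read 12.59, 12.02, 12.36 and 12.26. These 4 genes were named as the brightest of the measured precursors, so their brightness is no check of the tissue label. Array 2 was the lowest for each of the 4. Trh, the precursor of thyrotropin-releasing hormone, read 9.43, 9.35, 9.49 and 9.48, which is a narrow range. Of 37 peptide precursor genes listed, 30 had a probe set under their symbol here, and their median level lay at percentile 78.2 of all genes.

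Markers of cortex, hippocampus and striatum were mixed in level. Of 16 measured genes of that list 11 were brighter than the median probe set, as were 11729 of all 18193 genes. Rasgrf2, a signalling protein of upper cortical layers, read 11.97 to 12.21, and Camk2a, a kinase of forebrain glutamate neurons, read 11.69 to 11.94. Other markers were dim. Neurod6, a transcription factor of cortical pyramidal neurons, read 3.78 to 4.24, and Slc17a7, the main vesicular glutamate transporter of cortex, read 4.17 to 4.77. Slc17a6, the vesicular glutamate transporter that most hypothalamic and thalamic neurons use, read 12.11, 12.37, 12.07 and 12.15. Gad1, which makes GABA, read 12.65, 12.66, 12.78 and 12.58. The anterior pituitary hormones Prl (4.02 to 4.20) and Gh (5.65 to 5.89) were dim and flat across the 4 arrays. These deposited values carry no detection call, and a dim reading may be background alone.

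The 20 brightest genes are given as a set. Signal between probe sets also depends on the probes, so their order is not read. They include 5 ribosomal protein genes (Rps29, Rpl37a, Rpl38, Rps24 and Rpl41), Eef1a1, an elongation factor of translation, and Tpt1, a growth-related protein whose RNA is abundant in most tissues. Mbp, the myelin basic protein, read 14.03, 14.07, 14.12 and 14.12, a range of 0.085. Aldoc, a glycolytic enzyme of astrocytes, read 13.74, 13.68, 13.65 and 13.79. Cpe, the carboxypeptidase that trims peptide hormones in secretory granules, read 13.72, 13.79, 13.78 and 13.81. Gnas, the stimulatory G protein subunit and an imprinted gene, read 13.69, 13.67, 13.67 and 13.66, with an SD of 0.011. The others were Tmsb10, Fth1, Cox6a1, Ndrg4, Hspa8, Pmch, Tuba1a, Cst3 and Ywhab, which cover actin binding, iron storage, respiration, a neuronal scaffold protein, a chaperone, melanin-concentrating hormone, tubulin, a protease inhibitor and signalling.

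The 100 brightest genes lay between 13.08 and 14.09 and had a median SD of 0.035. By symbol, 16 of them encode ribosomal proteins, and 6 belong to the list of oxidative phosphorylation subunits. Only 2 of the 100 varied by the criterion given below. Ptgds, the prostaglandin D synthase of meninges and oligodendrocytes, read 12.89, 13.96, 14.26 and 13.31. Cnp, a myelin enzyme, read 13.08, 13.11, 13.37 and 13.34. Arrays 3 and 2 were high for Ptgds, whereas arrays 3 and 4 were high for Cnp.

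Spread was read against level, because dim and bright genes differ in how much they scatter. Genes were put in 20 bins of equal size by mean level, and the median SD of a bin was taken as typical for its level. It was 0.106 in the ninth bin, at levels of 6.64 to 7.12, and 0.047 in the brightest bin. The spread ratio is a gene's SD over the typical SD of its bin, and a gene with a ratio of 3 or more is called high-spread. By that rule 819 of 18193 genes (4.50%) were high-spread, and 644 of them lay above the median level of all probe sets. Just inside the threshold were En2 at 3.00 and Shisal1 at 3.00, and just outside it Col11a1 at 2.997 and Kbtbd6 at 2.996.

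**Figure D1:**
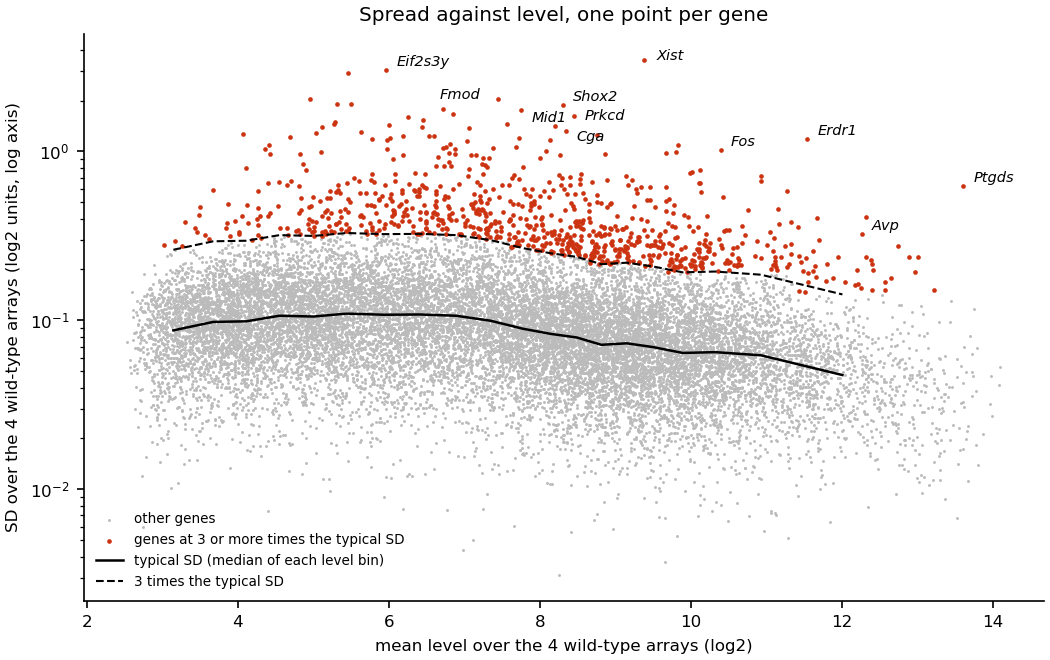
SD over the 4 wild-type arrays (log2 units, log axis) against mean level (log2), 1 point for each of 18193 genes. The solid line joins the median SD of the 20 level bins and the dashed line is 3 times that. The 819 genes at or above 3 times are in red, with Xist, Eif2s3y, Fmod, Shox2 and others named. The typical SD falls toward the bright end.

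The high-spread genes were not shared evenly between arrays. For each gene, the array farthest from the mean of the 4 was found. It was array 1 for 317 of the 819 genes, array 2 for 273, array 3 for 167 and array 4 for 62. Over all 18193 genes those shares were 29.7%, 26.6%, 24.9% and 18.7%, and array 4 had the smallest share in both sets. The sign differed by array. Array 1 was low in 192 and high in 125 of its genes, whereas array 2 was high in 205 and low in 68. Array 3 was high in 123 and low in 44, and array 4 was low in 40 and high in 22. For arrays 1 and 2 the balance was the reverse over all genes. There array 1 was farthest and high in 17.30% and low in 12.44%, and array 2 high in 11.60% and low in 15.04%. For arrays 3 and 4 it had the same direction over all genes (13.10% high and 11.81% low, and 8.62% high and 10.08% low).

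**Figure D2:**
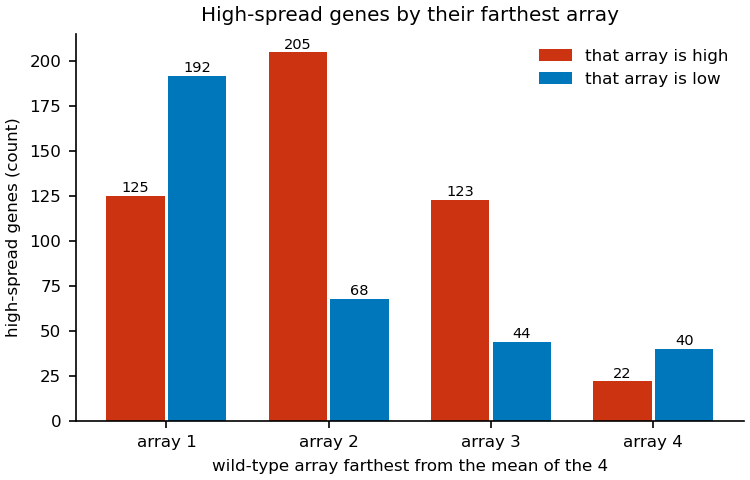
Number of high-spread genes (bars from 0) by which wild-type array was farthest from the mean of the 4, split by whether that array was high or low. The tallest bar is array 2 high, at 205 genes, and the shortest is array 4 high, at 22.

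A second probe set of the same gene gives a reading of the same RNA that the choice of genes did not use. Of 463 high-spread genes with another probe set, 254 (54.9%) had the same farthest array in the same direction there. Over all 9010 genes with another probe set that share was 25.8%. Where the other probe set was itself above the median level, 175 of 264 high-spread genes (66.3%) matched, against 31.7% over all genes.

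The spread within the 3 Creb-PomcCre-/- arrays, taken about their own mean, was used as another set of animals. There 721 genes (3.96%) had a ratio of 3 or more. Of the 819 genes that were high-spread in wild type, 342 (41.8%) were also high-spread among those 3 arrays. This compares spread within each genotype and says nothing of a difference between genotypes.

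The 24 genes with the largest spread ratio among genes above the median level ran from 12.2 to 50.4 times the typical SD, and all 24 had a range of at least 1.37. Genes named only as clones or predictions were left out. Array 2 was the highest in 11 of the 24, array 3 in 8, array 1 in 4 and array 4 in 1. The lowest array was array 1 in 16 of the 24. Within the Creb-PomcCre-/- arrays 21 of the 24 were also high-spread, all but Cga, Lhx8 and Slc6a20a, against 3.96% of all genes there. Their values fell into a small number of array patterns, which are taken in turn below.

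**Figure D3:**
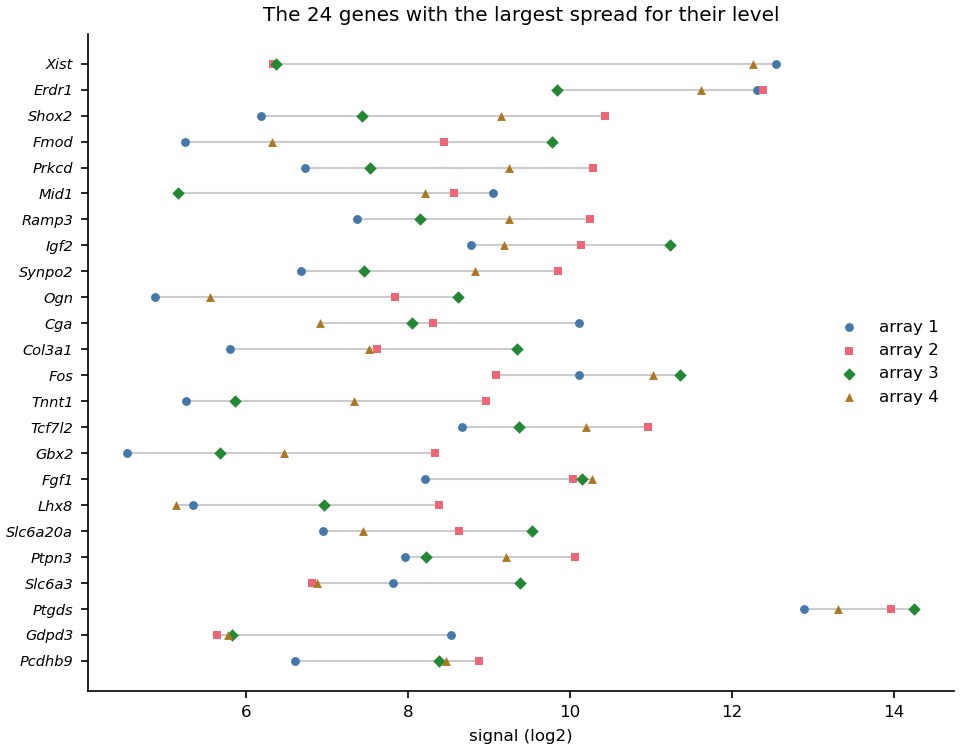
Signal (log2) of the 24 genes with the largest spread for their level in each of the 4 wild-type arrays, with a grey line from the lowest to the highest array. Arrays 1 and 4 lie together at the top for Xist, array 2 (square) is at the right end for Shox2, Prkcd, Ramp3 and Synpo2, and array 3 (diamond) for Fmod, Igf2, Ogn and Col3a1.

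Xist had the largest ratio. It encodes the long RNA that coats the inactive X chromosome, and it is made from that chromosome in female cells. Xist read 12.54 in array 1, 6.33 in array 2, 6.37 in array 3 and 12.26 in array 4. Its other probe set read 10.01, 3.47, 3.47 and 9.62. The Y-linked genes split the arrays the other way. Eif2s3y, a translation factor subunit, read 2.95, 8.65, 8.48 and 3.76. Kdm5d, a histone demethylase, read 2.75, 7.89, 8.08 and 3.11. Uty, also of that demethylase family, read 3.11, 6.78, 6.64 and 3.28. Thus arrays 1 and 4 were high for Xist and low for all 3 Y-linked genes measured, and arrays 2 and 3 were the reverse, with no overlap. Any other difference that separates arrays 1 and 4 from arrays 2 and 3 cannot be told apart from this one.

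That split was uncommon among high-spread genes as a whole. The largest gap between neighbouring values separated arrays 1 and 4 from arrays 2 and 3 in 71 of 819 genes (8.67%), against 8.16% of all genes. It separated a single array from the other 3 in 590 of the 819 (72.0%), against 74.6% of all genes.

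The meninges are the sheets of fibroblasts and vessels that wrap the brain, and fibroblasts there make collagens, small proteoglycans, retinoic acid and transporters. Of 21 genes listed for meninges and fibroblasts, all measured, 17 were high-spread, against 4.50% of all genes. The median spread ratio was 9.32, against 1 over all genes by construction. Array 3 was the highest array for all 21 genes, and array 1 was the lowest for 14, against 4782 and 4357 of all 18193 genes. The list score of an array is the median over members of the member's deviation from its own mean over the 4 arrays. It was -0.72, 0.24, 0.93 and -0.46 for arrays 1 to 4, a range of 1.64 that became 0.930 without array 3.

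Among the structural proteins, Fmod, a proteoglycan that binds collagen fibrils, read 5.24, 8.44, 9.78 and 6.31, which is 23.3-fold between array 3 and array 1. Ogn, another small proteoglycan, read 4.87, 7.84, 8.61 and 5.55. Col3a1, the fibrillar collagen of loose connective tissue, read 5.80, 7.61, 9.34 and 7.51. In all 3 genes array 3 was the highest and array 1 the lowest. Col1a2, a chain of type I collagen, read 8.56, 9.26, 10.15 and 8.91, and its other probe set 5.39, 6.52, 7.50 and 6.37. The partner chain, Col1a1, spread less here: it read 5.60, 5.68, 5.99 and 5.67 with a ratio of 1.63. Dcn, the proteoglycan decorin, had a different low array, with 9.36, 9.16, 9.41 and 8.76. Lum, also a small proteoglycan, was not high-spread, at 6.95, 6.73, 7.22 and 6.78.

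Some growth factor and transport genes of the meninges had the same order of arrays, 3, 2, 4 and 1 from high to low. Igf2, a growth factor, read 8.78, 10.13, 11.24 and 9.19, and Igfbp2, which binds it, read 6.78, 8.12, 9.0 and 6.86. Slc6a13, a GABA and taurine transporter, read 6.01, 7.04, 7.74 and 6.13. Slc13a4, a sulfate transporter, read 6.11, 7.27, 8.57 and 6.19. Slc6a20a, a proline transporter outside the list, read 6.95, 8.63, 9.54 and 7.44. These 5 genes were put together by that order, so the split of arrays is not a separate result. The order was seen in 7.94% of high-spread genes and 4.11% of all genes. Slc22a6, an organic anion transporter, read 6.03, 6.42, 7.34 and 5.98, and Bmp6, a growth factor, read 6.03, 6.59, 7.03 and 5.72, so in both array 4 was the lowest. Of the 17 high-spread meningeal genes 12 had the first order and 4 the order 3, 2, 1 and 4.

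The regulators of meningeal fate were dimmer and split in the same way. Aldh1a2, the enzyme that makes retinoic acid, read 5.43, 6.77, 7.62 and 4.94. Crabp2, which carries retinoic acid, read 5.04, 6.39, 7.24 and 5.26. Foxc2, a forkhead factor of mesenchyme, read 4.12, 5.60, 6.57 and 3.86, and Foxc1 read 6.15, 6.78, 7.14 and 6.47. The remaining high-spread members were Slc22a6, Bmp6 and Aebp1, with spread ratios of 5.80, 5.36 and 4.33, and array 3 was the highest in each. Pdgfra, shared with oligodendrocyte precursors, was not high-spread, with 9.81, 9.84, 10.03 and 9.85.

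The other probe sets of 13 of these genes gave scores of -0.29, 0.08, 0.53 and -0.19, with the same order of arrays. The order of arrays by meningeal score (3, 2, 4, 1) also put arrays 3 and 2, those high for Y-linked genes, above arrays 4 and 1. The part that sex played in the meningeal scores was not tested. Within the Creb-PomcCre-/- arrays 8 of the 21 genes were high-spread, against 3.96% of all genes there. Markers of other vessel and barrier cells moved less. The score ranges of endothelial cells and of pericytes and smooth muscle, with 3 of 14 and 1 of 12 members high-spread, were 0.095 and 0.157. Without 1 array they fell to as low as 0.0498 (without array 3) and 0.087 (without array 1).

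**Figure D4:**
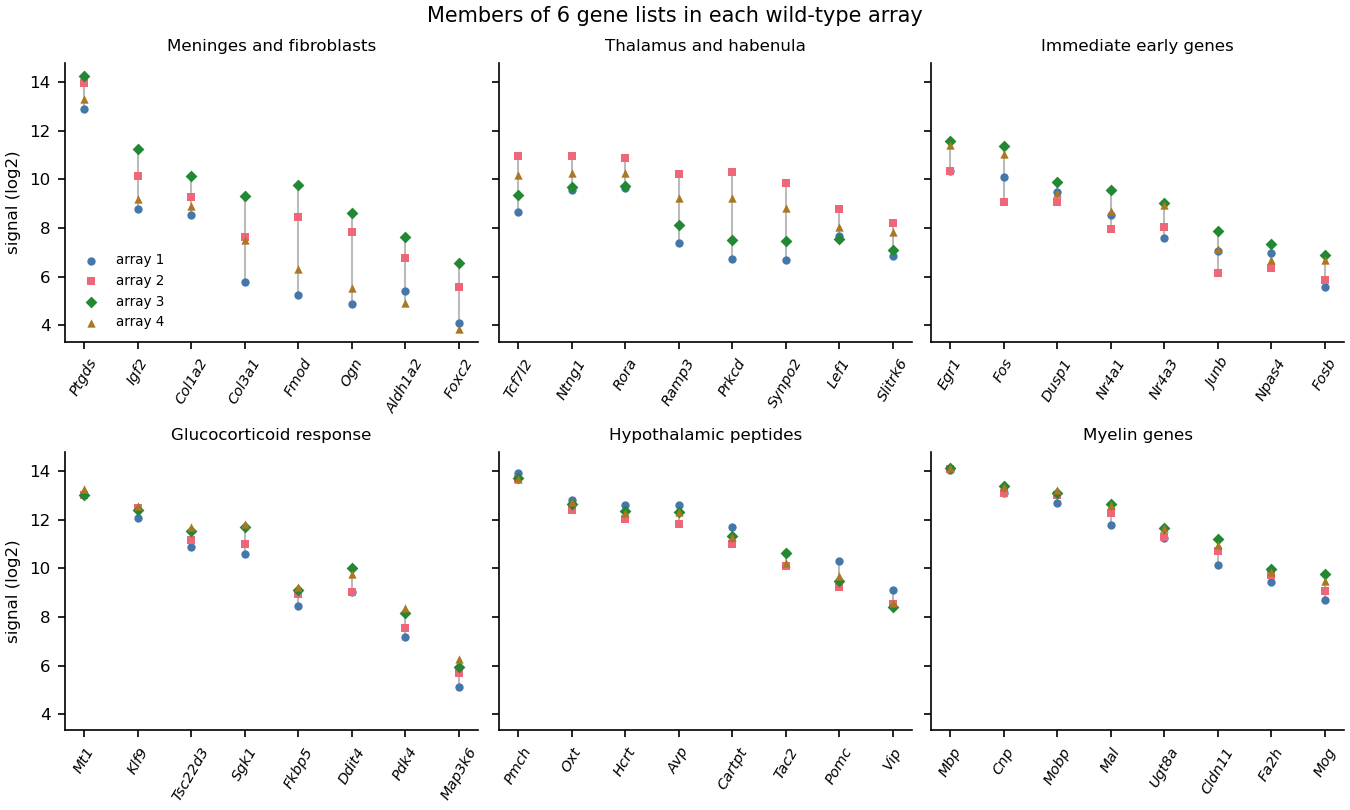
Signal (log2) in each wild-type array for 8 picked members each of 6 gene lists, with a grey line from the lowest to the highest array. All members shown for meninges, thalamus and immediate early genes are high-spread, and only Mt1, Pmch and Mbp in the other panels are not. Members that went another way, such as Tac1 of the thalamic list, are not shown. Array 3 (diamond) is at the top in every meningeal gene shown, array 2 (square) in every thalamic gene shown, and array 1 (circle) at or near the bottom in the myelin genes.

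The thalamus and habenula sit just above the hypothalamus, and their neurons carry transcription factors and signalling proteins that hypothalamic neurons mostly lack. Of the 20 genes listed for them, 13 were high-spread, against 4.50% of all genes. Array 2 was the highest for 16 of the 20, against 3912 of all 18193 genes. The scores were -0.29, 0.74, -0.32 and 0.09, a range of 1.05 that became 0.334 without array 2. Among the 13 high-spread members, array 1 was the lowest in 9 and array 3 in 3. Of the 10 high-spread members with another probe set, 5 had the same farthest array and direction there. The other probe sets of 13 listed genes scored -0.31, 0.26, -0.23 and 0.05.

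Tcf7l2, the Wnt pathway transcription factor that marks thalamic relay neurons, read 8.66, 10.96, 9.37 and 10.20. Its other probe set read 7.31, 9.75, 8.15 and 8.90. Array 2 exceeded array 1 by 4.93-fold on the first of these. Lef1, a factor of the same family, read 7.66, 8.77, 7.57 and 8.03. Rora, a nuclear receptor of thalamic neurons, read 9.63, 10.89, 9.74 and 10.27. Both had array 2 as the highest and array 4 as the next.

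Prkcd, a protein kinase C isoform concentrated in thalamic relay neurons, read 6.73, 10.29, 7.53 and 9.25, an 11.8-fold range. Synpo2, an actin-binding protein, read 6.68, 9.86, 7.45 and 8.82. Ramp3, which modifies receptors for calcitonin-family peptides, read 7.37, 10.24, 8.14 and 9.25. In these 3 genes the arrays kept one order, 2 then 4 then 3 then 1, and 9 of the 13 high-spread members had that order. Plekhg1 read 7.10, 9.23, 7.60 and 8.08, and Ntng1, a synaptic adhesion protein, read 9.56, 10.98, 9.68 and 10.25. Slitrk6, a membrane protein of neurite growth, read 6.87, 8.21, 7.09 and 7.83.

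Habenular genes in the list were dimmer. Gpr151, a receptor of habenular neurons, read 5.06, 6.15, 4.88 and 5.11, and Pou4f1, a transcription factor of the medial habenula, read 3.48, 3.25, 3.60 and 3.42. Only the first of these was high-spread. Tac1, the substance P precursor, which both habenula and hypothalamus express, went the other way from the list: 11.79, 11.33, 11.70 and 11.72, with array 2 the lowest. Zic1, a zinc-finger factor of several dorsal and rostral regions, read 9.98, 11.69, 10.95 and 11.10. Adarb1, an RNA-editing enzyme, read 9.27, 9.83, 9.23 and 9.56.

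Several of the 24 genes lay outside the list and had array 2 as the highest. Shox2, a homeobox factor, read 6.18, 10.43, 7.43 and 9.15, and its other probe set 4.58, 6.93, 4.74 and 5.88. Gbx2, a homeobox factor of the developing thalamus, read 4.53, 8.33, 5.68 and 6.46. Tnnt1, a troponin, read 5.25, 8.96, 5.86 and 7.33, and Ptpn3, a phosphatase, read 7.96, 10.06, 8.22 and 9.21. All 4 genes had the order 2, 4, 3, 1. That order was the most frequent among high-spread genes, at 129 of 819 (15.8%), against 4.46% of all genes.

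Lhx8, a LIM-homeobox factor of cholinergic neurons in the basal forebrain, was high in other arrays. It read 5.34, 8.39, 6.96 and 5.13, so arrays 2 and 3 were high and arrays 1 and 4 low. Lhx6, a related factor of GABA neurons, read 6.23, 7.28, 7.05 and 6.33, with the same division. The other probe set of Lhx6 did not have the same farthest array and direction.

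Of 8 measured genes for glutamate neurons 3 were high-spread (37.5%), and of 16 for cortex, hippocampus and striatum 5 (31.2%), against 4.50% of all genes. Nrn1, Neurod1 and Tbr1 were the 3 of glutamate neurons, and the list scored -0.08, 0.24, -0.09 and 0.01 (range 0.323, and 0.0732 without array 2). Nrn1, a secreted growth protein, read 9.88, 10.47, 9.94 and 10.13. Neurod1, a factor of neuronal differentiation, read 7.28, 7.77, 6.94 and 7.17. Tbr1, a T-box factor of cortical neurons, read 5.09, 5.79, 5.67 and 4.88, so arrays 2 and 3 were the higher there as for Lhx8. The list for cortex, hippocampus and striatum had a score range of 0.084 (0.0358 without array 1 and 0.0432 without array 2). Its other high-spread members were Nr4a2, Lamp5, Prox1 and Dsp. Nr4a2, a nuclear receptor also made in dopamine neurons, read 9.36, 8.86, 9.49 and 9.53. Dsp, a desmosome protein of the dentate gyrus, read 6.01, 4.96, 4.92 and 5.0, with array 1 alone high. Prox1, of the dentate gyrus as well, read 5.65, 6.31, 5.62 and 5.53, with array 2 alone high, and Lamp5 read 8.50, 8.51, 8.75 and 8.13.

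On the probe sets used, peptide genes of the hypothalamus showed small but shared differences, with array 2 low. Of the 30 measured precursors 15 were high-spread, against 4.50% of all genes. Array 2 was the lowest for 18 and array 1 the highest for 18, against 5284 and 5838 of all 18193 genes. Those were also the most frequent lowest and highest arrays over all genes, whose scores were 0.0105, -0.0101, 0.0003 and -0.0024. The precursors scored 0.15, -0.21, 0.05 and 0.01, a range of 0.360 that became 0.172 without array 2. The arcuate list scored 0.13, -0.26, 0.03 and 0.01 (range 0.120 without array 2), with 8 of 17 high-spread and array 2 the lowest in 15. The paraventricular and magnocellular list scored 0.12, -0.19, 0.01 and 0.05, a range of 0.308 that became 0.123 without array 2. The ventromedial list scored 0.10, -0.15, -0.05 and -0.01, a range of 0.253 that became 0.106 without array 1 and 0.154 without array 2. The lateral list scored 0.11, -0.12, 0.02 and -0.02 (range 0.0909 without array 2). These lists share members. In each of the 5 lists array 2 had the lowest score and array 1 the highest, while array 2 had the highest score of the thalamic list. On other probe sets this held for 6 arcuate genes. For 4 precursors arrays 2 and 3 were nearly level there, at -0.0745 and -0.0727. The ventromedial list (9 genes) scored 0.06, -0.03, -0.08 and -0.03 there. The paraventricular list (5) scored 0.005, 0.003, -0.032 and -0.002, and the lateral list (4) -0.057, -0.006, -0.031 and 0.010. Array 2 was not the lowest in those.

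Pomc, the melanocortin precursor, read 10.28, 9.24, 9.49 and 9.69, and its other probe set 9.63, 8.56, 8.98 and 9.05. Array 1 was the highest and array 2 the lowest on both. Cartpt, a peptide that lowers food intake, read 11.69, 11.00, 11.31 and 11.28. Npy, the appetite-raising peptide of the arcuate nucleus, did not have that order, with 9.99, 10.05, 10.36 and 10.61. Tac2, the neurokinin B precursor, read 10.63, 10.10, 10.63 and 10.21, with arrays 1 and 3 high. Sst, the somatostatin precursor, read 11.67, 11.30, 11.60 and 11.63. Adcyap1, the PACAP precursor, ran from 9.76 in array 2 to 10.30 in array 1. Vip, a peptide of the suprachiasmatic nucleus, read 9.12, 8.51, 8.40 and 8.58. Array 2 was the lowest in Tac2, Sst and Adcyap1, and array 3 in Vip.

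Some peptides had other high arrays. Cck, made in many brain regions including the thalamus, read 9.17, 10.89, 9.63 and 10.27, the order of the thalamic genes. Nts, the neurotensin precursor, read 10.06, 10.51, 10.32 and 9.83. Crh, the corticotropin-releasing hormone precursor, read 8.56, 8.98, 9.03 and 8.52. Npvf, the precursor of RF-amide peptides in the dorsomedial area, read 7.25, 6.30, 7.73 and 7.56. In Nts and Crh arrays 2 and 3 lay above arrays 1 and 4, and in Npvf array 2 stood below the other 3.

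Dopamine neuron genes in the arcuate list were led by Slc6a3, the dopamine transporter, which read 7.82, 6.81, 9.38 and 6.88. Th, the first enzyme of dopamine synthesis, read 9.05, 8.46, 9.16 and 8.70. Arrays 3 and 1 were the higher in both genes. Nr5a2, a nuclear receptor in the same list, had array 1 as the highest: 6.53, 5.29, 5.42 and 6.01.

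The suprachiasmatic, mammillary and preoptic lists had score ranges of 0.149, 0.145 and 0.152 (0.0392 without array 4, 0.0214 without array 2 and 0.0995 without array 4). In these lists 5 of 14, 4 of 13 and 3 of 12 members were high-spread, against 4.50% of all genes. Their most variable members, Cck, Rora, Lef1 and Zic1, are shared with the thalamic list or follow its array order. Rgs16, a brake on G protein signalling that cycles in the suprachiasmatic nucleus, read 8.23, 9.40, 8.38 and 9.03. Lhx9, a LIM-homeobox factor listed for the lateral hypothalamus, read 5.11, 7.76, 5.36 and 5.83, and its other probe set 4.91, 7.45, 5.69 and 5.89. Foxp2, a forkhead factor listed for the ventromedial nucleus, read 9.16, 9.90, 8.98 and 9.31. Array 2 was the highest in all 3 genes. Moxd1, a monooxygenase listed for the preoptic area, read 6.52, 7.04, 7.39 and 6.19.

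**Figure D5:**
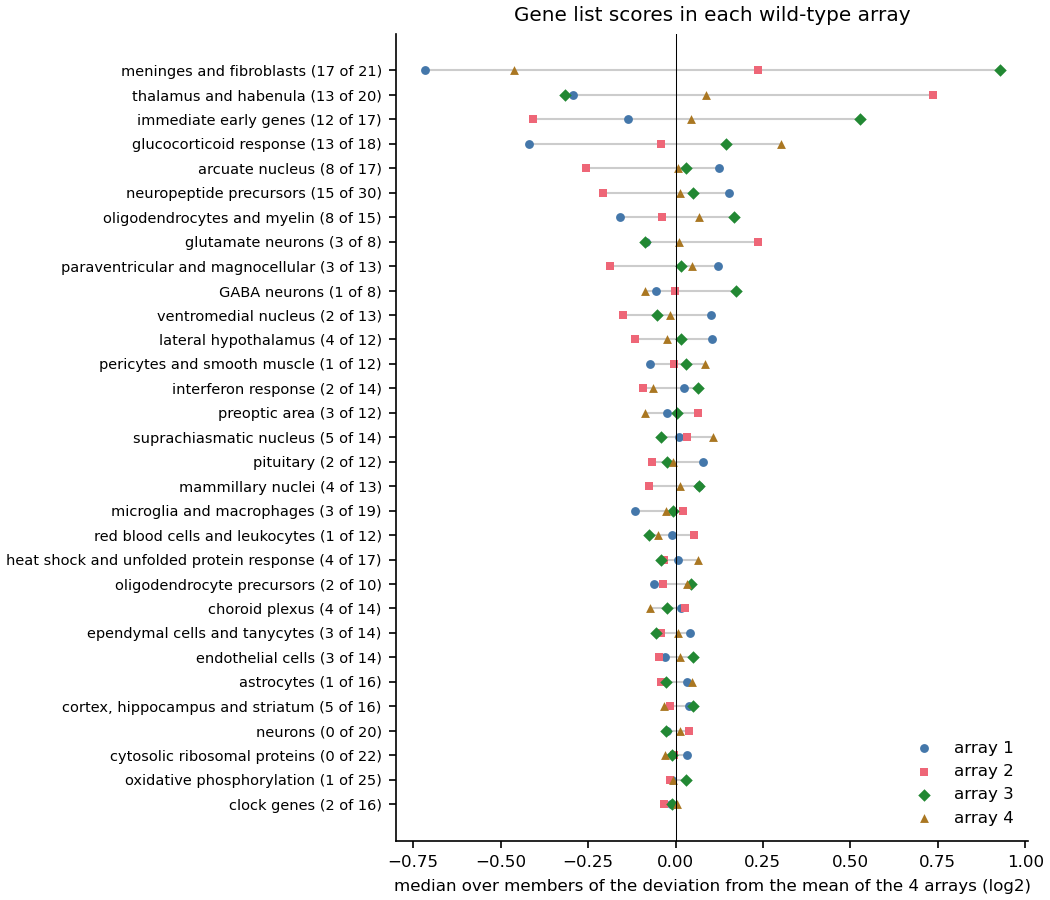
Score of each gene list in each wild-type array: the median over list members of the log2 deviation from the member's mean over the 4 arrays. Brackets give high-spread over measured members. The 31 lists shown leave out the sex-linked list, whose scores run from -2.28 to 2.13. The 4 widest lists are meninges, thalamus, immediate early genes and glucocorticoid response, and the narrowest as plotted are clock genes, oxidative phosphorylation and ribosomal proteins.

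Immediate early genes are transcribed within minutes of neuronal activity or stress, in part through CREB at cyclic AMP response elements (CRE). Of 18 genes listed, 17 had a probe set under their symbol, and 12 were high-spread, against 4.50% of all genes. Array 3 was the highest for 16 of the 17 and array 2 the lowest for 14, against 4782 and 5284 of all 18193 genes. The scores were -0.13, -0.41, 0.53 and 0.05, a range of 0.935 that became 0.458 without array 3. The 250 bases before the transcription start were searched for the CRE core TGACG on both strands, which is also contained in the full element TGACGTCA. The core was present in 12 of the 13 immediate early genes that have a promoter entry in the RefSeq table (GRCm38.p6), and in 25.9% of the 14452 measured genes with one. Counted by promoter, it was in 14 of 17 (82.4%), against 17.8% of all 32851 promoters. The full element was in 2 of the 13 genes, Dusp1 and Btg2, against 2.50% of measured genes. Another element searched was the CArG box, a run of A and T letters between CC and GG. It was in 2 of the 13 genes, Egr2 and Zfp36, against 1.43% of measured genes. By promoter it was in 5 of 17 (29.4%), against 1.47% of all promoters, so the matches were not limited to the CRE. A match is a description of the letters and not evidence of binding. The stretches shown, for 5 genes that varied between arrays, end at the base before the start, and capitals mark the core or the full element on either strand. Positions are Fos chr12:85473750-85473889 (plus strand), Nr4a1 chr15:101266596-101266845 (plus), Junb chr8:84978749-84978868 (minus), Dusp1 chr17:26508473-26508682 (minus) and Btg2 chr1:134079156-134079335 (minus).
Fos: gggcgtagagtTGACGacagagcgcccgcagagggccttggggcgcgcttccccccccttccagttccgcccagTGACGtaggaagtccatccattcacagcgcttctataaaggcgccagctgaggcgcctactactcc
Nr4a1: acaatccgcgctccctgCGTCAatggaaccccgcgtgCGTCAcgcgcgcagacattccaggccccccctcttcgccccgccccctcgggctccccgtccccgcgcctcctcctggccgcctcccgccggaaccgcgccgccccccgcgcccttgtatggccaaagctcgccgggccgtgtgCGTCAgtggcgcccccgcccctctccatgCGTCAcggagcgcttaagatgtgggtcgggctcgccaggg
Junb: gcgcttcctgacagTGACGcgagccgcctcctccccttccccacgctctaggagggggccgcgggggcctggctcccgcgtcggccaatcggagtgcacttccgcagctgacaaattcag
Dusp1: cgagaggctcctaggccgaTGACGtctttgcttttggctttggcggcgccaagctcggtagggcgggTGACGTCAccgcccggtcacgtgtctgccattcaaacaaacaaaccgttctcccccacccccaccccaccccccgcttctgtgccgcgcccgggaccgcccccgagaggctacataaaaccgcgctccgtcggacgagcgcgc
Btg2: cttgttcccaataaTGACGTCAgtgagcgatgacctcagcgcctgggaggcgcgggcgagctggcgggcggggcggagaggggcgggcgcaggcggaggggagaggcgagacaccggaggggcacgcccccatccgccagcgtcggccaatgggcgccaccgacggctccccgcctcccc

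Fos, a subunit of the AP-1 transcription factor, read 10.11, 9.08, 11.36 and 11.03. Arrays 3 and 4 were the high ones, and array 3 exceeded array 2 by 4.84-fold. Junb, its partner in AP-1, read 7.07, 6.14, 7.87 and 7.13, and Fosb read 5.57, 5.87, 6.91 and 6.69. Egr1, a zinc-finger factor of the same early response, read 10.36, 10.34, 11.60 and 11.41. Arrays 3 and 4 were the higher pair in all 4 of these genes.

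Among the nuclear receptors, Nr4a1 read 8.52, 7.98, 9.57 and 8.71, and Nr4a3 read 7.59, 8.04, 9.02 and 8.95. Dusp1, which dephosphorylates MAP kinases, read 9.48, 9.07, 9.91 and 9.46. Npas4, a factor induced by calcium entry in neurons, read 6.96, 6.34, 7.36 and 6.67. Btg2, an antiproliferative gene, read 8.08, 7.27, 8.31 and 7.80, and its other probe set 8.11, 6.95, 8.14 and 7.63. Array 3 was the highest in each of these 5 genes, and array 2 the lowest in all but Nr4a3.

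Egr2, Egr3 and Klf4 were also high-spread, at ratios of 6.15, 6.62 and 4.47. Arc, a synaptic protein of active neurons, read 7.14, 6.82, 7.49 and 7.17 with a ratio of 2.72. Ier2 was flat, at 6.74, 6.69, 6.86 and 6.73. The other probe sets of 5 listed genes scored 0.04, -0.38, 0.43 and -0.08, so array 4 lay below array 1 on them. Of the 5 high-spread members with another probe set, 3 had the same farthest array and direction there. Within the Creb-PomcCre-/- arrays 13 of the 17 genes were high-spread, against 3.96% of all genes there. Of those 13 genes, 11 were among the 12 named for wild type. The labels give neither the time of day nor the interval to dissection.

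Glucocorticoid hormones released by the adrenal gland enter the brain and induce a set of genes through the glucocorticoid receptor. Of 18 such genes 13 were high-spread, against 4.50% of all genes. Array 1 was the lowest for 12 and array 4 the highest for 11, against 4357 and 3661 of all 18193 genes. The scores were -0.42, -0.04, 0.14 and 0.30, a range of 0.720 that became 0.402 without array 1. The response element was searched as GNACANNNTGTNC, which reads the same on both strands, in the 250 bases before the start. It was found in 3 of 16 listed genes with a promoter entry (Sgk1, Mt1 and Map3k6), against 0.353% of measured genes. The stretches for the 2 high-spread genes among them are Sgk1 chr10:21993690-21993889 (plus strand), where the table holds 6 promoters, and Map3k6 chr4:133240618-133240817 (plus). Capitals mark the match, and each stretch ends at the base before the start in RefSeq (GRCm38.p6).
Sgk1: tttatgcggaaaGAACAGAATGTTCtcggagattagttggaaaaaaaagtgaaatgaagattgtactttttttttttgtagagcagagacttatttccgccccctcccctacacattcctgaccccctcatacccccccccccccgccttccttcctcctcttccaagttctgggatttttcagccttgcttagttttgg
Map3k6: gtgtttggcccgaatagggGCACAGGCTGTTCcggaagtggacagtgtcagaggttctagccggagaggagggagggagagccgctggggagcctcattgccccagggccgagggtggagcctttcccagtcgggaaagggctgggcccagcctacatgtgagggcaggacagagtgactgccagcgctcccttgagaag

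Sgk1, a kinase that controls ion channels, read 10.57, 11.01, 11.69 and 11.82. Map3k6, a stress kinase, read 5.14, 5.70, 5.94 and 6.29. Tsc22d3, the glucocorticoid-induced leucine zipper, read 10.87, 11.16, 11.54 and 11.72, and its other probe set 9.21, 9.41, 9.94 and 10.13. Array 4 was the highest and array 1 the lowest in all 3. Fkbp5, a chaperone partner of the receptor, read 8.45, 8.94, 9.11 and 9.25. Pdk4, which restrains glucose oxidation, read 7.16, 7.54, 8.16 and 8.38. Cdkn1a, a cell cycle inhibitor, read 7.82, 8.40, 8.55 and 8.96. These 3 genes had the same order of arrays as Sgk1.

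Other members had the same low array but another order of the rest. Klf9, a zinc-finger factor, read 12.06, 12.50, 12.40 and 12.58. Sult1a1, a sulfotransferase, read 7.19, 8.11, 8.58 and 8.58. Zbtb16, a transcription factor, read 7.74, 8.59, 8.19 and 8.55. All 3 were lowest in array 1. Nfkbia, the NF-kappa-B inhibitor, read 11.20, 11.04, 11.75 and 11.70, and Ddit4, an inhibitor of mTOR, read 9.02, 9.02, 10.02 and 9.78. In Nfkbia and Ddit4 arrays 3 and 4 were high, as for Fos. Errfi1 and Plin4 were also high-spread, at ratios of 4.01 and 3.96. Mt1, a metallothionein, was not: it read 13.01, 13.03, 13.03 and 13.24.

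The other probe sets of 9 of these genes scored -0.28, -0.11, 0.05 and 0.24, in the same order. Within the Creb-PomcCre-/- arrays 12 of the 18 were high-spread, against 3.96% of all genes there. Per1, a clock gene that also responds to glucocorticoids, read 9.22, 9.32, 9.71 and 9.82. Of 16 clock genes Per1 and Npas2 were high-spread (12.5%), against 4.50% of all genes. Npas2, the forebrain partner of the clock factor Arntl, read 6.59, 7.44, 6.36 and 6.80. The clock list had a score range of 0.039, which became 0.0188 without array 2. Its place among the narrow lists changed with the processing: the range of the oxidative phosphorylation list was 0.0373 against 0.0423 for the clock list after quantile normalization, and 0.0349 against 0.0359 with all probe sets averaged. Dbp, a clock output gene with a strong daily rhythm, read 11.02, 10.82, 11.10 and 10.99.

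Heat shock genes were high-spread in 4 of 17 cases (23.5%), against 4.50% of all genes. Hspa1b, an inducible chaperone, read 8.29, 8.99, 9.29 and 10.01, and its other probe set 7.32, 7.91, 8.41 and 9.21. Hspa1a, its near-identical neighbour, read 8.82, 8.88, 9.04 and 9.48, and the array probes may not separate the pair. Dnajb1, a co-chaperone, read 10.73, 10.82, 11.20 and 11.30, and Hspb1, a small heat shock protein, read 9.26, 9.83, 9.55 and 9.87. Array 4 was the highest and array 1 the lowest in these 4 genes. Array 4 was the highest for 12 of the 17, against 3661 of all 18193 genes. Hspa8, the constitutive chaperone, read 13.76, 13.76, 13.79 and 13.79.

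Oligodendrocytes wrap axons in myelin, and white matter tracts such as the optic chiasm and fornix run through or along the hypothalamus. Of 15 myelin genes 8 were high-spread, against 4.50% of all genes. Array 1 was the lowest for 11 and array 3 the highest for 9, against 4357 and 4782 of all 18193 genes. The myelin scores were -0.16, -0.04, 0.17 and 0.07. Mal, a lipid raft protein of myelin, read 11.76, 12.27, 12.64 and 12.61. Cldn11, the tight junction protein of myelin, read 10.14, 10.71, 11.19 and 10.96. Mog, on the outer face of the sheath, read 8.70, 9.05, 9.77 and 9.48. Mobp, a compact myelin protein, read 12.67, 13.00, 13.10 and 13.22. Array 1 was the lowest in each of these, by 1.47-fold to 2.11-fold against the highest array.

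Opalin, Ugt8a and Fa2h, a membrane protein and enzymes of myelin lipids, had ratios of 4.26, 4.69 and 3.45 with array 1 the lowest. Mbp was not high-spread. It was among the brightest genes given above, and whether its level bears on its spread was not tested. Ermn (10.13, 10.25, 10.21 and 10.14) and Klk6 (8.13, 7.95, 7.97 and 7.92) were flat. Gpr17, of oligodendrocyte precursors that are about to mature, read 9.31, 9.43, 9.97 and 10.06, and Lhfpl3, of the same lineage, read 9.63, 10.10, 9.96 and 10.01.

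Neuronal genes had spreads near those typical for their level, and astrocyte genes slightly larger ones. The median spread ratios were 1.06 and 1.36, where the median over all genes is 1. None of 20 neuronal genes was high-spread, against 4.50% of all genes, and the score range of that list was 0.067 (0.035 without array 2). Snap25, of the synaptic fusion machinery, read 13.39, 13.48, 13.39 and 13.40, and Rbfox3, the antigen NeuN, read 11.56, 11.60, 11.62 and 11.59. The nearest to the threshold was Thy1, a surface protein of neurons, at 12.17, 12.45, 12.31 and 12.45. Of 16 astrocyte genes 1 (6.25%) was high-spread. It was Gjb6, a gap junction protein, at 10.77, 11.07, 11.19 and 11.20. Gja1, the main astrocytic gap junction protein, read 12.74, 12.77, 12.76 and 12.76.

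Among the housekeeping lists, none of 22 ribosomal protein genes was high-spread, and their median ratio was 0.638. Rps16 was measured here only on a dim probe set, at 2.99 to 3.46. Of 25 oxidative phosphorylation genes 1 was high-spread, Ndufv1 of complex I, at 11.45, 11.75, 11.81 and 11.44. The score ranges of the ribosomal and oxidative phosphorylation lists were 0.063 and 0.047. They became 0.0197 for the ribosomal list without array 1 and 0.0118 for oxidative phosphorylation without array 3. The deposited processing tends to equalise arrays, so a difference common to most genes would not be seen.

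Of 19 measured genes for microglia and macrophages 3 were high-spread (15.8%), and of 14 for the interferon response 2 (14.3%), against 4.50% of all genes. The median spread ratios of these lists were 1.47 and 2.01. C1qb, a complement subunit of microglia, read 9.38, 9.81, 9.78 and 9.97, while C1qa, of the same complex, read 9.56, 9.54, 9.46 and 9.65. Lyve1 and Mrc1, of macrophages that line vessels and meninges, read 4.29, 5.18, 5.57 and 4.95, and 4.68, 4.95, 5.58 and 4.93. Both were dim, and array 3 was the highest as for the meningeal genes. Hbb-b2, a globin of red blood cells, was flat at 7.01, 7.02, 7.13 and 7.0. S100a8, of neutrophils, read 3.96, 4.83, 3.79 and 3.91. The high-spread interferon response genes were Ifitm3 and Psmb8. Ifitm3, an antiviral membrane protein also made by vessels, read 9.30, 9.26, 9.71 and 9.17, and Psmb8, a subunit of the immunoproteasome, read 7.25, 6.67, 6.53 and 6.34.

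Vessel genes gave single exceptions as well. Cldn5, the tight junction protein of brain endothelium, read 8.94, 8.97, 8.43 and 8.68, with array 3 the lowest. Slc2a1, the glucose transporter of the barrier, read 11.02, 11.23, 11.41 and 11.52, and Itm2a read 11.58, 11.48, 11.90 and 11.68. Vtn, the pericyte-made vitronectin, read 10.05, 10.22, 10.38 and 9.87.

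The choroid plexus is the ventricular tissue that makes cerebrospinal fluid. Of its 14 genes measured 4 were high-spread (28.6%), against 4.50% of all genes. Ttr, the thyroxine carrier that dominates choroid plexus RNA, read 5.80, 7.45, 6.14 and 6.0, and its other probe set 5.17, 8.69, 5.21 and 5.49. Array 2 was the highest on both. Otx2, a homeobox factor of choroid plexus, read 5.39, 6.62, 5.59 and 6.05. Kcnj13, a potassium channel, read 4.73, 6.33, 7.19 and 4.86, with arrays 3 and 2 high. Clic6, a chloride channel protein, had array 1 as the highest instead, at 9.04, 8.43, 8.23 and 8.25.

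Of 12 pituitary genes measured, 2 were high-spread (16.7%), against 4.50% of all genes. Cga, the subunit common to the glycoprotein hormones, read 10.11, 8.30, 8.04 and 6.91, and Tshb, the thyrotropin subunit, read 7.54, 5.37, 4.64 and 4.98. The highest array was array 1 in both. These genes are also made in the pars tuberalis, the sheath of the pituitary stalk that adjoins the hypothalamus. Lhb (4.96 to 5.31) and Fshb (2.90 to 3.26) stayed dim, as did Gh and Prl. Gpr50, a melatonin-receptor relative in tanycytes, was also highest in array 1, at 8.73, 8.12, 8.05 and 8.10. Of the other tanycyte genes, Dio2, which activates thyroid hormone, read 7.58, 8.01, 7.83 and 8.23, and Lhx2, a LIM-homeobox factor, read 6.63, 7.47, 6.37 and 6.66. Chga, a granule protein, read 11.00, 10.72, 10.82 and 10.83.

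The remaining genes of the 24 did not follow a tissue list. Erdr1 read 12.31, 12.38, 9.84 and 11.62, and Mid1, a microtubule-associated ubiquitin ligase, read 9.05, 8.57, 5.16 and 8.21. Both lie at or near the pseudoautosomal end of the mouse X chromosome, and array 3 was the lowest in both. Fgf1, a fibroblast growth factor, read 8.20, 10.03, 10.15 and 10.27, and its other probe set 6.37, 7.84, 7.78 and 7.86. Pcdhb9, a protocadherin, read 6.60, 8.87, 8.38 and 8.47. In Fgf1 and Pcdhb9 array 1 stood below the other 3. Gdpd3, a phosphodiesterase, had the reverse, at 8.53, 5.64, 5.82 and 5.77.

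The position of high-spread genes along chromosomes was also read. Of 816 placed in the RefSeq gene order, 194 (23.8%) had another high-spread gene with the same farthest array and direction among the 10 measured genes on either side. Of all placed genes, 11.1% had a high-spread neighbour that matched their own farthest array and direction. At least 2 such neighbours were found for 28 of the 816 genes (3.43%), against 1.59% of all placed genes. The share of high-spread genes was 8.37% on chromosome 13 and 7.06% on chromosome 9, against 4.50% overall. Neighbouring genes are not independent of each other, and no test of this share was made.

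Across the 32 lists, 442 of 491 distinct members were measured and 125 were high-spread. They are 15.3% of the 819 high-spread genes, so most of the variable genes lay outside the lists. At least 25% of members were high-spread in 15 lists and none in 2. The median score range was 0.151, and 19 lists had a range under 0.2.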

How the data were processed

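RNA of 4 wild-type hypothalamus samples, out of 7 samples in the series, was measured on 1 Affymetrix mouse430_2 array each. Each value is a log2 signal as the authors deposited it. The submitters' processing notes list the tools R 2.10.0, affy and RMA, with no order or settings. RMA as commonly run equalises the arrays' distributions, so a difference common to most genes is not seen, and it gives no detection call. The number of arrays limits the precision.

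Of 45101 probe sets, 64 controls were left out. Of the other 45037, 34945 carried 1 gene symbol in the platform annotation, 932 several and 9160 none. The RefSeq table of GRCm38.p6 held the gene identifier of 34741 of them, and 0 symbols changed. The brightest probe set over the 4 arrays stood for each of 18193 genes. SDs were compared with the median SD of 20 level bins, and a gene at 3 or more times was called high-spread. The calculation was tested on simulated data. Promoter sequences of GRCm38.p6 were searched for motifs.

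Members, the 32 gene lists and the rule for named genes were chosen with earlier results of these data known. The rule takes the 20 brightest genes, the 24 with the largest spread ratio above the median level, high-spread or bright members of each list, and every sex-linked gene. Other genes named in the text were chosen after their values were seen. No comparison between groups was made, and the only test was Dixon's outlier criterion for single arrays. Alternatives covered the bins, a lowess trend, the threshold, dim genes, the choice of probe set (also over all 7 arrays), the normalization, the measure of spread and leaving out each array. Python 3.11.15 was used with pandas 2.3.3, numpy 2.4.6, scipy 1.17.1, statsmodels 0.14.6 and matplotlib 3.10.9.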

Additional observations from a re-analysis of the deposited data

Results flagged for a closer look

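Among the 206 genes named in the text and 37 gene lists, a single array stood apart in 21 genes and 0 lists. The measure is the gap between the highest or lowest array and its nearest neighbour, as a share of the whole range, and it was set against Dixon's 95% critical value for 4 samples. Chance flags about 1 in 20 groups. Over all 18193 genes the share was 6.11%, and among the named genes it was 10.2%, many of which were named for their spread. Array 1 stood apart in 10 of the 21 genes. Cap1, Tmem87a, Psmc3ip, Creg2 and Dcaf17 were named after their values were seen, because array 1 stood apart in them. For these genes the criterion was met in advance. That choice raises both the count for array 1 and the share among the named genes. It was high for Cap1 (gap share 0.977), Rps24 (0.955), Gdpd3 (0.939), Tmem87a (0.931), Psmc3ip (0.928), Dsp (0.923), Gpr50 (0.897) and Creg2 (0.849). It was low for Dcaf17 (0.951) and Fgf1 (0.883). Array 2 was high for Gabra6 (0.933), Cbln3 (0.892), Prox1 (0.845), Gbx1 (0.836) and S100a8 (0.834), and low for Neurod6 (0.980). Array 3 was high for Hbb-b2 (0.854) and Pdgfra (0.837). Array 4 was high for Mt1 (0.896) and low for Fshb (0.928) and En2 (0.860). In Rps24, Hbb-b2, Mt1 and Pdgfra the whole range was small, so the gap is large only as a share of it.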

How the results depend on the processing

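Of 119 values under the 10 alternatives that keep all 4 arrays, 108 stayed within 1.5 times the count, within 1 SD over arrays, or within the 95% binomial interval. The exceptions follow. A threshold of 2 gave 2144 high-spread genes (825, 644, 458 and 217 with arrays 1 to 4 farthest), and a threshold of 4 gave 448 (157, 161, 108 and 22), so that array 2 passed array 1. Averaging all probe sets of a gene kept 50 of the 100 brightest genes and 586 of the 819 high-spread genes, and all 24 of the named ones. Bins, lowess, median centring and quantile normalization each kept at least 789. Genes above the median level alone gave 646.

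Without 1 array, 892 to 1036 genes were high-spread. An SD of 3 arrays is less precise than one of 4, and the part this played in the counts was not tested. The farthest array was array 1 in 388 to 554 of them, array 2 in 358 to 471, array 3 in 254 to 258 and array 4 in 147 to 185. List score ranges, lowest to highest, were 0.930 to 1.63 for meninges, 0.334 to 1.10 for thalamus, 0.458 to 0.943 for immediate early genes, 0.402 to 0.683 for glucocorticoid response, 0.120 to 0.412 for arcuate, 0.172 to 0.339 for peptides, 0.0909 to 0.264 for lateral, 0.0214 to 0.182 for mammillary, 0.0392 to 0.127 for suprachiasmatic, 0.0732 to 0.338 for glutamate neurons, 0.0431 to 0.103 for choroid plexus and 0.0358 to 0.111 for cortex. Of the 24 named genes, 22 to 24 stayed high-spread. The number of arrays, and the lack of a detection call for dim signals, limit these values. No paired analysis was possible because only 1 group was described and no comparison between groups was made.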

Other observations

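Values outside the lists above were also read. The 5 gene lists here (dopamine neurons, basal forebrain cholinergic neurons, cerebellar granule cells, class II antigen presentation and pars tuberalis) and the single genes were chosen after the values were seen, so that their counts are descriptions only. Of 13 dopamine neuron genes 8 were high-spread, against 4.50% of all genes, with scores of 0.07, -0.26, 0.21 and -0.07. Of the 3 high-spread ones with another probe set, 1 had the same farthest array and direction there. Slc18a2, the vesicular monoamine transporter, read 8.92, 8.37, 9.24 and 8.88, and Ddc, the second enzyme of dopamine synthesis, read 10.74, 10.28, 10.91 and 10.50. Arrays 3 and 1 were the higher in both, as for Th and Slc6a3. Of 10 genes for cerebellar granule cells 6 were high-spread, with array 2 at a score of 0.62. On the other probe sets of 8 of them the array 2 score was 0.13. Of the 5 high-spread ones with another probe set, 2 had the same farthest array and direction there. Gabra6, a GABA receptor subunit largely restricted to granule cells, read 3.93, 5.91, 3.81 and 3.78, and Cbln3, a granule cell glycoprotein, read 4.08, 5.36, 3.99 and 4.14. Gabrd, a subunit made in both granule cells and thalamus, read 4.61, 7.69, 5.05 and 6.64. Array 2 was the highest in these 3 genes, and the first 2 were dim in the other 3 arrays.

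Of 9 genes for class II antigen presentation 4 were high-spread, and array 4 was the lowest in each. The 2 of these with another probe set had the same farthest array and direction there. H2-Aa, a chain of the class II molecule, read 6.62, 7.31, 7.77 and 5.33, and its partner H2-Ab1 read 6.11, 6.46, 6.48 and 5.46. Cd74, the invariant chain, read 6.71, 6.95, 7.23 and 6.28, and H2-Eb1 read 6.53, 6.68, 7.09 and 6.04. Of 9 genes for basal forebrain cholinergic neurons 4 were high-spread, with scores of -0.22, 0.18, 0.10 and -0.16. Of the 2 high-spread ones with another probe set, 0 had the same farthest array and direction there. The other probe sets of 3 listed genes scored 0.05, -0.05, 0.07 and -0.03, so array 2 was not high on them. Gbx1, a homeobox factor, read 5.01, 5.87, 5.09 and 4.94, and Ngfr, the low-affinity neurotrophin receptor, read 6.97, 7.78, 7.43 and 6.77. Of 8 pars tuberalis genes the high-spread ones were Cga and Tshb.

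A small number of genes set array 1 apart by over 1 log2 unit while the other 3 arrays lay close together. Tmem87a, a membrane protein, read 8.95, 6.92, 6.90 and 6.77. Psmc3ip, a recombination factor, read 8.26, 6.25, 6.39 and 6.27. Creg2, a secreted glycoprotein, read 8.61, 6.66, 6.76 and 6.95. Cap1, an actin regulator, read 9.90, 8.56, 8.53 and 8.55. Dcaf17, a ubiquitin ligase subunit, was low there instead, at 5.43, 7.36, 7.41 and 7.32.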
